A study of Mus musculus with 24 samples.

Results

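Chemokines are small secreted proteins that draw cells along a gradient, and their receptors are G protein-coupled receptors that couple mainly to the Gi class of G proteins. A blood-borne progenitor needs such receptors to leave the fetal liver or bone marrow and to enter the thymus, where Ccr9 and Ccr7 read the chemokines of the thymic stroma and Cxcr4 reads Cxcl12. Innate and cytotoxic lymphocytes and myeloid cells are well known sources of Ccl3, Ccl4, Ccl5, Ccl9 and Xcl1.

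The genes examined here were 10 of the 55487 genes listed in both deposited value tables, found by exact match of the symbol: the 5 chemokine genes Ccl5, Ccl3, Ccl4, Ccl9 and Xcl1 and the 5 receptor genes Ccr9, Ccr7, Ccr2, Cxcr4 and Cx3cr1. They were read by 3′ mRNA sequencing in 24 libraries, 3 for each of 8 groups. All groups were Cas9-LP cells, a line of lymphoid progenitors (LPs) grown from fetal liver of Ebf1-deficient mice with Cas9 knocked in at Rosa26, kept on OP9 stromal cells with SCF, Flt3L and IL-7. Loss of Ebf1, a factor needed for the B lineage, was therefore common to the controls and to every perturbed group, as were Cas9 and a retroviral guide RNA marked by human NGFR. The guides of the sgControl groups were aimed at luciferase, those of the other groups at Cbfb (the shared partner of the RUNX proteins), Ctcf (a chromatin insulator protein) or Med12 (a Mediator subunit). Marked CD45+ cells were sorted 5 days after transduction and were therefore bulk populations of one line in which cutting need not be complete. Experiment 1 compared sgControl and sgCbfb in LPs and in Phase 1 cells, which had met the Notch ligand DLL4 on OP9-DLL4 stroma for 2 days. Experiment 2 compared sgControl, sgCbfb, sgCTCF and sgMed12 in unstimulated LPs.

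Values are CPM, the reads of a gene scaled by all the reads on genes in its library. Libraries held 1363263 to 1743319 reads in Experiment 1 and 3354483 to 4326783 in Experiment 2, so that a gene with 0 reads could still have a level of up to 1.72 to 2.20 CPM and 0.693 to 0.894 CPM, respectively (3 reads of a library). Cbfb RNA fell in sgCbfb LPs, from 86.5 to 40.2 CPM in Experiment 1 and from 114 to 48.4 CPM in Experiment 2, whereas in Phase 1 the groups overlapped (66.5 and 53.9 CPM). Ctcf RNA was 391 CPM in sgControl and 306 CPM with sgCTCF, and Med12 RNA was not lower with sgMed12 (7.01 against 5.14 CPM). A 3′ tag of a gene cut elsewhere does not report the loss of its protein. The study immunoblotted Cbfβ, CTCF and Med12 in marked Cas9-LPs 3 days after transduction. Its text reports loss of the Cbfβ protein, and the title of its figure also names depletion of CTCF and Med12. In Phase 1, sgControl replicate 3 correlated least with its group (mean Pearson's r of 0.888 on log2 values, against 0.920 and 0.923 for the other 2 libraries), so the calls that leaving it out changed are given. It changed 2, on Ccl9 and Cxcr4 in Phase 1 sgControl against LP. The lymphoid progenitor genes Il7r and Flt3 were read in the LP groups. Ptprc, the gene of the sort marker CD45, was read in all groups, and Ebf1 RNA was still read at 143 to 403 CPM. The summed level of 9 stromal genes was 1.43 to 42.1 CPM over all libraries, with its highest library in sgMed12. Dcn, Col3a1 and Postn were at 0 reads in all groups, and Pdgfrb had a mean over 10 CPM in Phase 1 sgControl (15.1 CPM) and sgMed12 (11.2 CPM). The part of stromal RNA in the results was not tested. In bulk samples, fewer cells of a type and less RNA per cell cannot be told apart.

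A gene was called changed where its adjusted P was under 0.05, its group means differed by more than 2-fold and 1 of the groups had a mean over 10 CPM. Differences are given as log2, from limma on log2(CPM + 1), with the standard error (SE) and the Benjamini-Hochberg adjusted P over all genes tested, 13239 in Experiment 1 and 13177 in Experiment 2. In each experiment 9 of the 10 genes passed the filter on low values (1 CPM in 3 libraries). Xcl1 was left out in Experiment 1 and Ccl4 in Experiment 2.

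Ccr9, the receptor for the thymic and intestinal chemokine Ccl25, fell with sgCbfb in every setting where the pair was compared. In Experiment 1 its LP level was 1022, 989 and 955 CPM in sgControl and 255, 215 and 234 CPM with sgCbfb, a 4.21-fold lower mean (difference -2.07, SE 0.14, limma adjusted P = 2.29e-09). In Experiment 2 the sgControl LPs had 627, 536 and 439.5 CPM and the sgCbfb LPs 27.4, 24.4 and 29 CPM, a 19.8-fold lower mean (-4.25, SE 0.16, limma adjusted P = 3.82e-16). All 6 sgCbfb LP libraries lay below all sgControl LP libraries of their experiment. The sizes of the 2 falls come from separately normalized tables, and their difference was not tested.

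After Notch stimulation Ccr9 was lower in both genotypes. Phase 1 sgControl cells had 142, 141 and 110.0 CPM, 7.55-fold below the LPs (-2.92, SE 0.14, limma adjusted P = 2.54e-12), and Phase 1 sgCbfb cells 53.2, 67.9 and 53.0 CPM, 4.04-fold below theirs (-2.00, SE 0.14, limma adjusted P = 3.8e-09). Within Phase 1 the sgCbfb mean was 2.26-fold lower than the sgControl mean (-1.16, SE 0.14, limma adjusted P = 8.45e-06), again without overlap of the libraries. The sgCbfb difference was thus smaller in Phase 1 than in LPs. The test of that difference between stages, the interaction of stage and sgCbfb, gave 0.91 (SE 0.20, 95% interval 0.51 to 1.32, limma adjusted P = 0.0168), and without Phase 1 sgControl replicate 3 it gave 0.79 (limma adjusted P = 0.00539). Leaving out any 1 of 5 other libraries put the adjusted P between 0.0509 and 0.0683, with the difference at 0.80 to 0.91. Cbfb RNA was lower with sgCbfb in LPs and overlapped between the guides in Phase 1, and its part in the stage difference was not tested.

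Ccr9 was not lower with the other guides. With sgCTCF the libraries had 968, 725 and 671 CPM, all above the sgControl libraries, but the 1.47-fold difference stayed under the threshold for a call (0.56, SE 0.16, limma adjusted P = 0.0218). With sgMed12 they had 922, 536 and 751 CPM and overlapped sgControl (0.44, 95% interval 0.12 to 0.77, limma adjusted P = 0.0839). Ccr9 was 29.3-fold higher with sgCTCF and 27.3-fold higher with sgMed12 than with sgCbfb (limma adjusted P = 2.03e-17 and 1.09e-16). The order of the 4 LP groups of Experiment 2 was sgCTCF, sgMed12, sgControl and sgCbfb. Of the neighbours in that order, sgCTCF and sgMed12 were not told apart (-0.12 for sgMed12 minus sgCTCF, 95% interval -0.44 to 0.21), nor were sgMed12 and sgControl.

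**Figure D1:**
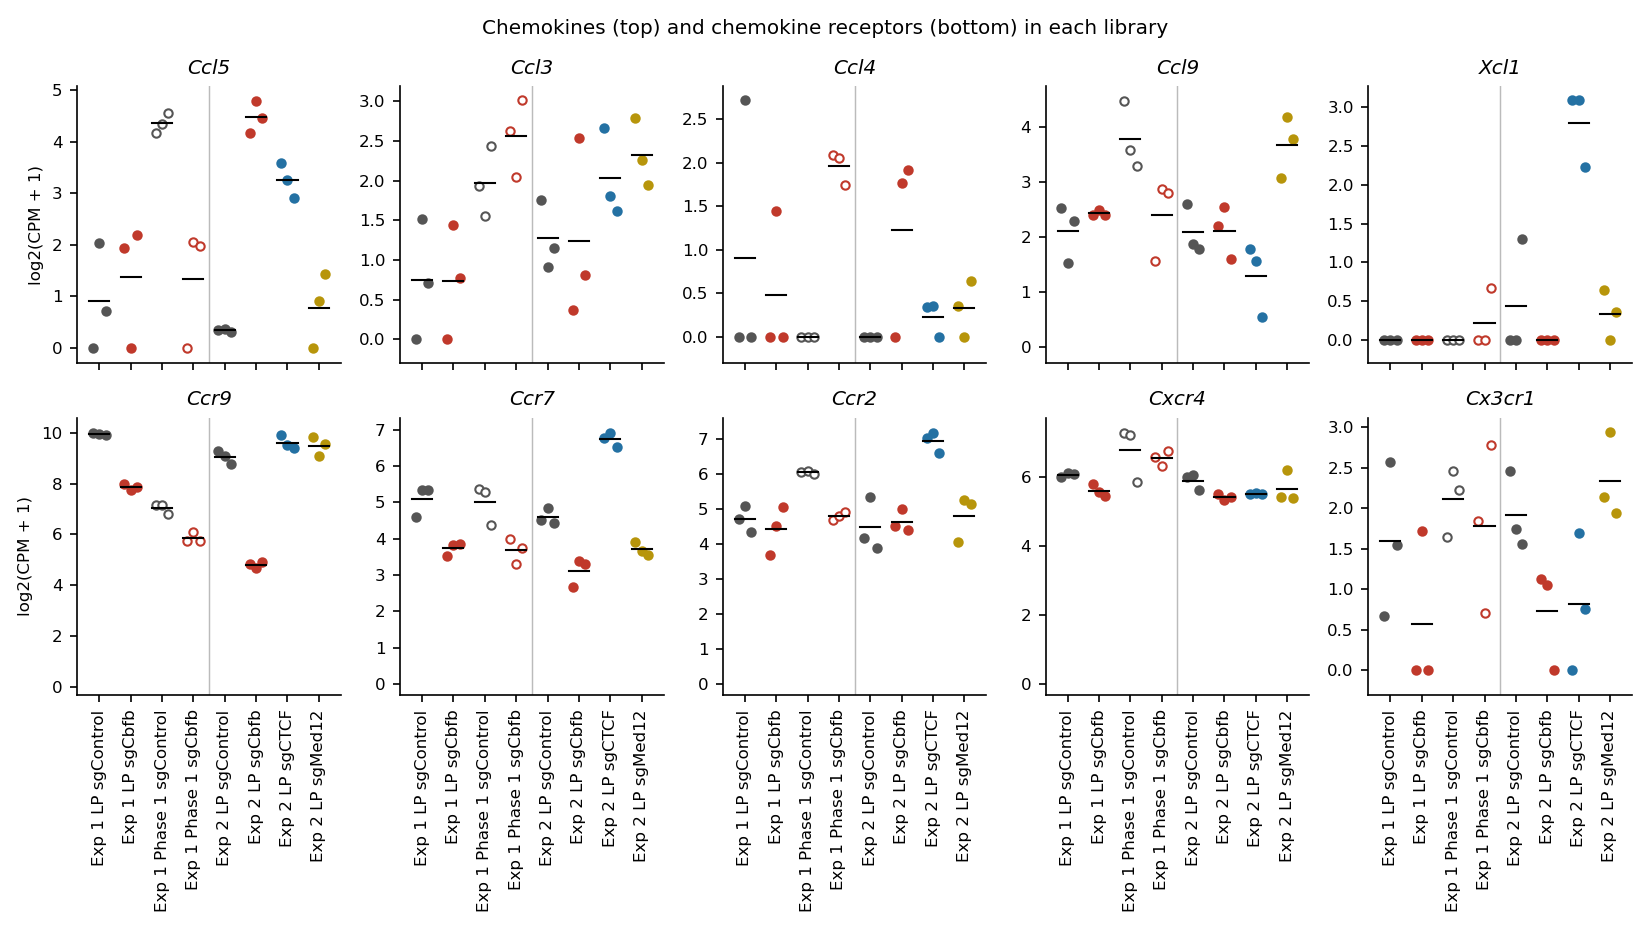
Level of each of the 10 genes on the vertical axis, as log2(CPM + 1), in each library of the 8 groups on the horizontal axis (filled points, LP; open points, Phase 1; bar, mean of 3 libraries; grey line, divide between the 2 separately normalized experiments). Each panel has its own vertical scale; Ccr9 stands at 24.4 to 29 CPM in the sgCbfb LPs of Experiment 2 and at 439.5 CPM or more in the other LPs of that experiment.

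Promoter sequence (250 bases before and 50 after the RefSeq start site, GRCm38.p6) was found for 7 of the 10 genes and not for Ccl5, Ccl4 and Ccr7. It was searched on both strands for the RUNX cores TGTGGT and TGCGGT and for TGGGAA, the core bound by the Notch cofactor RBPJ. These motifs do not overlap one another. The promoters of Ccr9, Ccr2 and Ccl9 are shown because these genes changed between groups, and that of Xcl1 because its reads came mostly from the sgCTCF group. They are printed 5′ to 3′ on the strand of the gene, with any match in capitals, and lie at chr9:123766961-123767260 (plus strand), chr9:124101933-124102232 (plus), chr11:83578587-83578886 (minus) and chr1:164935473-164935772 (minus), in that order.
Ccr9: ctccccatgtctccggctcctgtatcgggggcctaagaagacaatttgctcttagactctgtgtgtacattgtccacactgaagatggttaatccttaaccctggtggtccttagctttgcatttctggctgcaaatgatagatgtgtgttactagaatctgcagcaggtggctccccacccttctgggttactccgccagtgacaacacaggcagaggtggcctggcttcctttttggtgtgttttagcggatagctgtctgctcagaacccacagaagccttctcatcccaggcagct
Ccr2: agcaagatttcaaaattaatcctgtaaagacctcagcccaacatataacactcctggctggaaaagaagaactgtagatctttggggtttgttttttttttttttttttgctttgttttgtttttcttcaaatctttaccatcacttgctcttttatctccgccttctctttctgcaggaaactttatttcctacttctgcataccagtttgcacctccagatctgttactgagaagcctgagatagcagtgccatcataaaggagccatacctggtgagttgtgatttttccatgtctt
Ccl9: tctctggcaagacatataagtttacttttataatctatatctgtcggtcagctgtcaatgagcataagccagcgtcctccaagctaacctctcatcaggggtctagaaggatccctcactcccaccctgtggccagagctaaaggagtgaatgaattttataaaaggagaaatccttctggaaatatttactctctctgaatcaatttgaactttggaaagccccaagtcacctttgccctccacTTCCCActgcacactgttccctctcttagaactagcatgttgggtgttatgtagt
Xcl1: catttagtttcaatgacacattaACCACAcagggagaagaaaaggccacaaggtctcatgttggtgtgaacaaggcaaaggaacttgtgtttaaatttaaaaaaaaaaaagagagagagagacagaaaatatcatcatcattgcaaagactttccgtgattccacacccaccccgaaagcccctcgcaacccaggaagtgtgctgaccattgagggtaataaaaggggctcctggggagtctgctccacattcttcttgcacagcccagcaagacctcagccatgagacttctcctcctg

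Neither RUNX core nor the RBPJ core was in the windows of Ccr9, Ccr2 and Cxcr4. Ccl9 held 1 RBPJ core on the opposite strand, beginning 5 bases before the start, and Xcl1 held 1 RUNX core on the opposite strand, beginning 227 bases before it. Ccl3 held 1 RUNX core, and Cx3cr1 held 2 RUNX cores and 1 RBPJ core. A RUNX core of either form was in 22.4% and the RBPJ core in 25.6% of all 32851 promoter windows. A match describes the letters of the window only.

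The 3 genes whose pattern over the 24 libraries was most like that of Ccr9, by Pearson's r on log2(CPM + 1) centred within each experiment among 8622 genes with a group mean over 10 CPM in both experiments, were C1ql2 (r = 0.973), Gprin3 (0.961) and Lztfl1 (0.949). These libraries share depth and batch within an experiment, and r is given as a description. Lztfl1, whose product regulates ciliary trafficking, lies on chromosome 9 on the minus strand (GENCODE M21, GRCm38, 123694416-123717697), inside the annotated span of Ccr9 (123678439-123784330, plus strand) and 49.5 kb before the RefSeq start of Ccr9. The exons of the pair share no bases. Ccr9 does share 1932 exon bases with the opposite-strand gene AC165425.1 and 269 with Gm17200, which was listed at 0 in all libraries. The strand setting of the counting is not given in the sources used here, so reads of Ccr9 and AC165425.1 may not have been separated.

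Lztfl1 had 238, 300 and 377 CPM (lowest, median and highest) in sgControl LPs of Experiment 1 and 88.2, 94.2 and 95.8 CPM with sgCbfb (-1.68, SE 0.22, limma adjusted P = 4.84e-05). In Experiment 2 its mean fell from 202 to 39.2 CPM with sgCbfb (-2.34, SE 0.16, limma adjusted P = 7.97e-11). In Phase 1 the sgControl and sgCbfb libraries overlapped at 40.4 and 35.6 CPM (-0.11, 95% interval -0.57 to 0.35), where Ccr9 still differed. Fyco1, which begins beyond the 3′ end of Ccr9, had 33.7 CPM with sgCbfb and 36.1 CPM with sgControl in Experiment 1 LPs, and 28.2 and 29.6 CPM in Experiment 2.

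**Figure D2:**
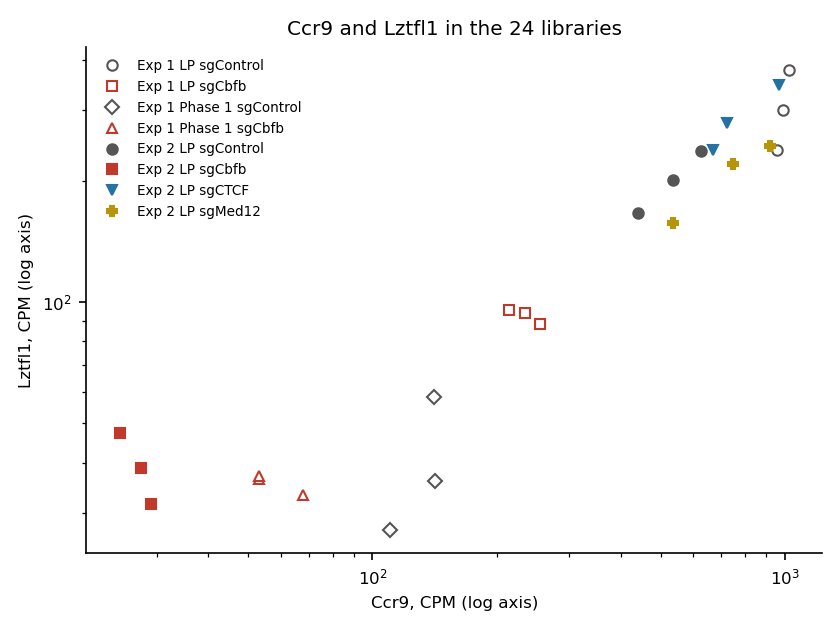
CPM of Lztfl1 (vertical, log axis) against CPM of Ccr9 (horizontal, log axis) in the 24 libraries, with 1 symbol per group (open, Experiment 1; filled, Experiment 2). Both genes are lowest in the sgCbfb LPs of Experiment 2 and in Phase 1, and within Phase 1 Ccr9 differs between the guides where Lztfl1 overlaps.

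Ccr7, the receptor for Ccl19 and Ccl21, fell with sgCbfb in all 3 settings. In Experiment 1 LPs the libraries had 23.0, 39.6 and 39.2 CPM in sgControl and 10.6, 13.2 and 13.6 CPM with sgCbfb (-1.34, SE 0.35, limma adjusted P = 0.0342). In Phase 1 they had 40.2, 38.1 and 19.8 CPM against 14.9, 8.80 and 12.4 CPM (-1.34, SE 0.35, limma adjusted P = 0.0201). In neither stage did the groups overlap. No difference in Ccr7 between LP and Phase 1 was detected (sgControl, -0.08, 95% interval -0.79 to 0.64; sgCbfb, -0.07, 95% interval -0.78 to 0.65), and the sgCbfb difference was not shown to change with the stage (interaction 0.01, 95% interval -1.01 to 1.02). In Experiment 2, sgControl LPs had 21.9, 27.8 and 20.7 CPM and sgCbfb LPs 5.37, 9.39 and 8.82 CPM (-1.49, SE 0.21, limma adjusted P = 7.52e-06).

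The call on Ccr7 in Experiment 1 rested on few reads (14 to 64 per library). In LPs it was lost when any 1 of 5 of the 6 libraries compared was left out, with the difference between -1.41 and -1.22 and the adjusted P between 0.0775 and 0.177. In Phase 1 it was lost without any 1 of 4 libraries and in a fit on the compared groups alone (-1.34, limma adjusted P = 0.0622). Without Phase 1 sgControl replicate 3 it held (-1.65, limma adjusted P = 0.00136).

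With sgCTCF, Ccr7 rose 4.57-fold, to 109, 120.3 and 91.8 CPM (2.15, SE 0.21, limma adjusted P = 1.3e-07), and with sgMed12 it stood at 14.1, 11.6 and 10.8 CPM, below all sgControl libraries but by less than 2-fold (-0.89, SE 0.21, limma adjusted P = 0.013). The order in Experiment 2 was therefore sgCTCF, sgControl, sgMed12 and sgCbfb, with no overlap between neighbouring groups. The sgCTCF mean was 13.6-fold above the sgCbfb mean (3.63, SE 0.21, limma adjusted P = 7.7e-13), and the sgMed12 mean 8.79-fold below the sgCTCF mean (-3.04, SE 0.21, limma adjusted P = 2.49e-10). The genes most like Ccr7 were Paox (r = 0.912), Dad1 (0.903) and Grhpr (0.895).

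Ccr2, the receptor for Ccl2 and a guide of monocytes out of the bone marrow, rose with Notch stimulation in control cells. In Experiment 1 the sgControl libraries had 25.4, 32.8 and 19.3 CPM as LPs and 65.6, 67.1 and 62.4 CPM in Phase 1, 2.52-fold higher (1.33, SE 0.30, limma adjusted P = 0.00698). With sgCbfb they had 12, 21.8 and 32.1 CPM as LPs and 24.6, 27.0 and 28.9 CPM in Phase 1, which overlapped (0.38, 95% interval -0.25 to 1.0). Within Phase 1 the sgCbfb mean was 2.42-fold lower (-1.25, SE 0.30, limma adjusted P = 0.0118), and without sgCbfb replicate 1 this call was lost (-1.19, limma adjusted P = 0.056). The test of the difference between the stages did not pass (-0.95, 95% interval -1.83 to -0.07, limma adjusted P = 0.425).

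In Experiment 2, Ccr2 was 17.1, 39.9 and 13.9 CPM in sgControl, 21.8, 31.1 and 19.9 CPM with sgCbfb and 15.5, 36.9 and 34.3 CPM with sgMed12, all overlapping. It was 130.1, 144 and 95.9 CPM with sgCTCF, a mean 5.22-fold above sgControl (2.46, SE 0.29, limma adjusted P = 3.13e-06), 5.08-fold above sgCbfb and 4.26-fold above sgMed12. Ccr2 was thus high in 1 of the 4 groups. The genes most like it were Arl4c (r = 0.851), Hif1a (0.832) and Serp1 (0.824).

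**Figure D3:**
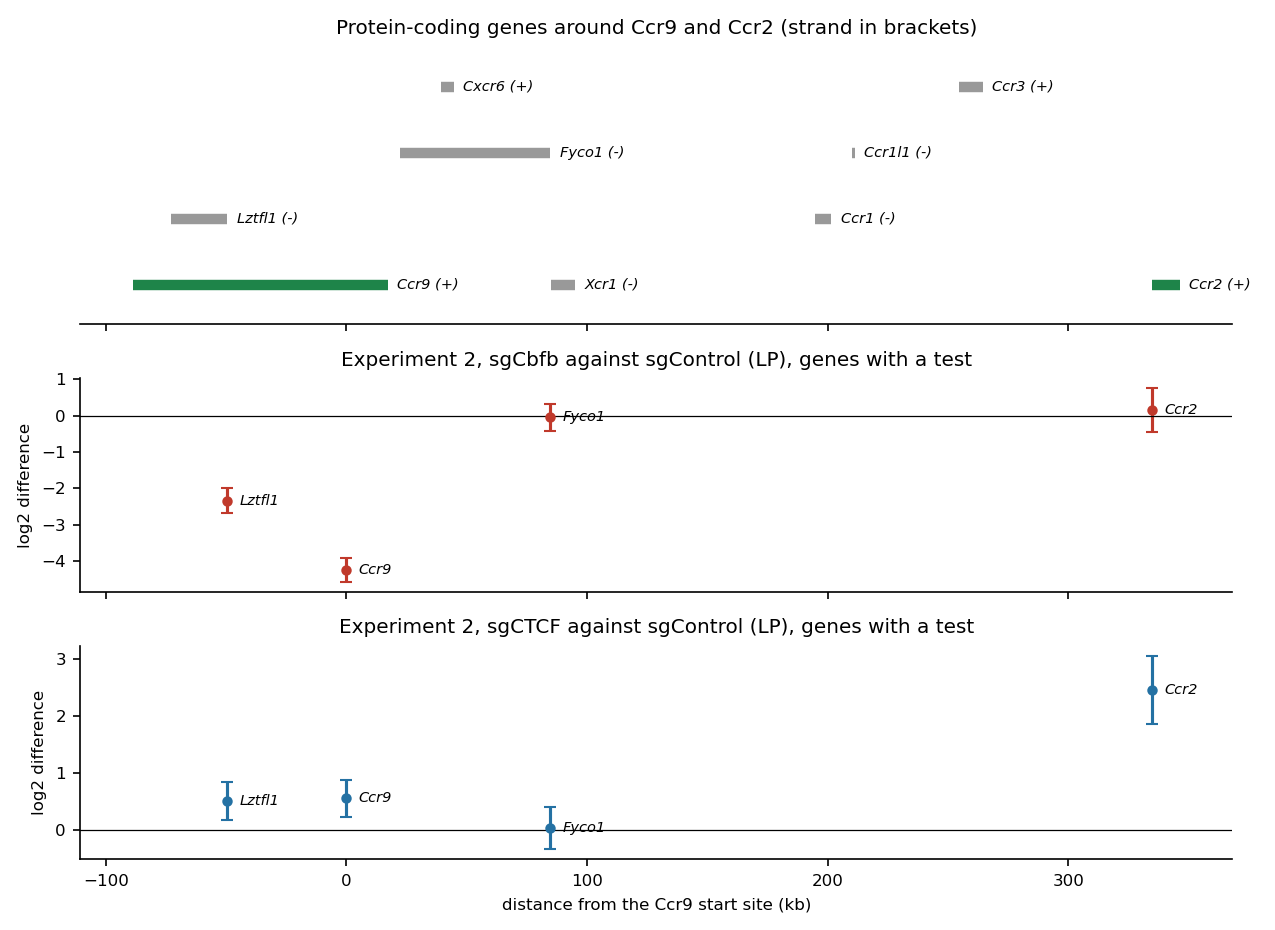
Top, the protein-coding genes from Lztfl1 to Ccr2 by distance from the Ccr9 start site in kb (bars, annotated spans, with Ccr9 and Ccr2 in green and their heights only for legibility). Below, the log2 difference and its 95% interval in Experiment 2 LPs for each gene that had a test, placed at its start: with sgCbfb, Ccr9 and Lztfl1 lie below 0, and with sgCTCF, Ccr2 is the gene farthest above 0 at 2.46.

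Cxcr4, the receptor for Cxcl12 that keeps progenitors in the marrow and supports early thymocytes, was not called in any of the 11 comparisons. Experiment 1 sgControl LPs had 63.2, 68.7 and 68.1 CPM and sgCbfb LPs 55.0, 46.5 and 42.8 CPM, without overlap (-0.47, 95% interval -1.02 to 0.08). Phase 1 sgCbfb cells had 96.0, 79.8 and 108 CPM, above all their LP libraries but by 1.97-fold (0.96, SE 0.26, limma adjusted P = 0.0603). Phase 1 sgControl cells had 157, 150.3 and 57.9 CPM, so that replicate 3 alone lay below the LP libraries of its own genotype. Without it the rise in sgControl cells passed the call (1.19, limma adjusted P = 4.62e-06). The rise in sgCbfb cells was then 0.96 (limma adjusted P = 5.73e-05), still under 2-fold and not called. Within Phase 1 the sgCbfb and sgControl libraries overlapped (-0.24, 95% interval -0.79 to 0.31). Without replicate 3 that difference was -0.70 (limma adjusted P = 0.0116), which was not called. In Experiment 2 the means of Cxcr4 ran from 42.1 CPM with sgCbfb to 59.6 CPM in sgControl. All sgCbfb libraries lay below all sgControl libraries (-0.48, 95% interval -0.84 to -0.12, limma adjusted P = 0.0726). So did all sgCTCF libraries (-0.38, 95% interval -0.74 to -0.02, limma adjusted P = 0.193). The sgMed12 libraries overlapped sgControl (-0.23, 95% interval -0.59 to 0.13).

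Cx3cr1, the receptor for fractalkine, was read at 0 to 6.68 CPM (0 to 23 reads) and its mean passed 10 CPM in no group, so that no call was possible. In Experiment 2 it was higher with sgMed12, at 3.39, 6.68 and 2.84 CPM, than with sgCbfb, at 1.19, 1.07 and 0 CPM (1.61, SE 0.44, limma adjusted P = 0.0111), and than with sgCTCF (1.52, SE 0.44, limma adjusted P = 0.0154). Neither sgMed12 nor sgCbfb was set apart from sgControl (limma adjusted P = 0.61 and 0.0782).

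Ccl5, a chemokine made by activated and cytotoxic lymphocytes, fell with sgCbfb in Phase 1 of Experiment 1 and rose with sgCbfb in the LPs of Experiment 2. In Experiment 1 it had 0, 3.10 and 0.642 CPM in sgControl LPs and 16.9, 19.4 and 22.7 CPM in Phase 1 sgControl cells, 15.8-fold higher (3.44, SE 0.69, limma adjusted P = 0.00245). With sgCbfb it had 2.82, 0 and 3.57 CPM in LPs and 0, 3.14 and 2.95 CPM in Phase 1, which overlapped (-0.03, 95% interval -1.46 to 1.4). Ccl5 was therefore low in 3 of the 4 groups, and in Phase 1 the sgCbfb mean was 9.70-fold below the sgControl mean (-3.02, SE 0.69, limma adjusted P = 0.00796).

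The test of the Ccl5 difference between the stages did not pass (-3.48, 95% interval -5.50 to -1.45, limma adjusted P = 0.0979), and it did with a pseudocount of 5 in place of 1 (-2.02, limma adjusted P = 0.00751) or without LP sgCbfb replicate 2 (-4.16, limma adjusted P = 0.0352). With a pseudocount of 0.1 both Phase 1 calls were lost (limma adjusted P = 0.138 against sgCbfb and 0.0715 against LPs), and without Phase 1 sgCbfb replicate 1 the first was lost (limma adjusted P = 0.075). Of 10 genes of natural killer and innate lymphoid cells, 3 had a mean over 10 CPM in Phase 1 sgControl, where Ncr1 and Eomes were at 0 reads. Their summed level was 2537 to 3301 CPM there, mostly from Gzma, against 84.3 to 130 CPM in Phase 1 sgCbfb and 54.6 to 70.0 CPM in sgControl LPs. The part of this in the Ccl5 result was not tested.

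In Experiment 2, Ccl5 had 1 read in each sgControl library (0.263, 0.295 and 0.243 CPM). It rose with sgCbfb to 17.0, 26.8 and 21.2 CPM, from 241 reads against 3 (4.14, SE 0.36, limma adjusted P = 2.9e-09; ratio of depth-scaled reads 82.0, 95% exact counting interval 27.7 to 400.5). With sgCTCF it had 11, 8.63 and 6.47 CPM, above all sgControl libraries (2.91, SE 0.36, limma adjusted P = 4.33e-06), but its mean of 8.70 CPM was under the minimum for a call. With sgMed12 it had 0, 0.871 and 1.70 CPM and overlapped sgControl. The sgCTCF mean lay 2.49-fold below the sgCbfb mean (-1.23, SE 0.36, limma adjusted P = 0.0131), a call that was lost without sgCbfb replicate 2 or sgCTCF replicate 3 (limma adjusted P = 0.0749 and 0.0756). The summed level of the natural killer and innate genes was lower with sgCbfb, at 1.26 to 5.09 CPM against 53.0 to 77.4 CPM in sgControl, and higher with sgCTCF, at 126 to 139 CPM. Its part in the Ccl5 results was not tested. The sgCbfb LPs of Experiment 1, at 0 to 3.57 CPM of Ccl5, overlapped their sgControl (0.46, 95% interval -0.97 to 1.89). The genes most like Ccl5 were Shisa5 (r = 0.849), Ifitm3 (0.827) and Usp12 (0.802).

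**Figure D4:**
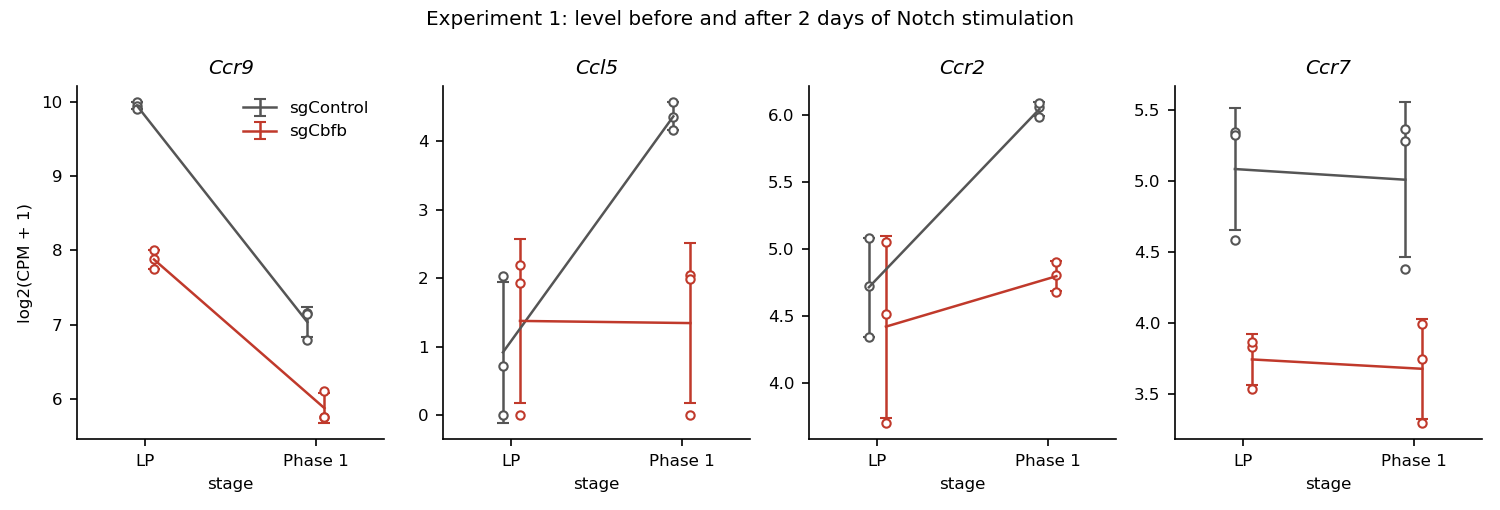
Level as log2(CPM + 1) on the vertical axis of Ccr9, Ccl5, Ccr2 and Ccr7 in Experiment 1 before (LP) and after 2 days of Notch stimulation (Phase 1) on the horizontal axis, with 1 point per library, lines through the means and bars of 1 SD (n = 3). Vertical scales differ between panels. Ccl5 and Ccr2 are called higher in Phase 1 in sgControl only, while Ccr7 differs between the guides by -1.34 at both stages. The tests of the stage difference passed for Ccr9 and not for the other 3 genes.

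Ccl9, a ligand of Ccr1 secreted by myeloid cells, was called with sgMed12 in Experiment 2. The libraries had 5.01, 2.66 and 2.44 CPM in sgControl and 7.35, 17.1 and 12.8 CPM with sgMed12, a 3.69-fold rise of the mean with no overlap (1.60, SE 0.38, limma adjusted P = 0.0158). It was also 3.58-fold above sgCbfb (3.58, 4.83 and 2.02 CPM; 1.57, SE 0.38, limma adjusted P = 0.00527) and 7.72-fold above sgCTCF (2.42, 1.95 and 0.462 CPM; 2.38, SE 0.38, limma adjusted P = 0.000106). The call against sgControl was lost with no filter on low values (limma adjusted P = 0.0782) and without sgControl replicate 2 or 3 or sgMed12 replicate 3 (limma adjusted P = 0.0694, 0.0664 and 0.0789). The summed level of 10 myeloid genes was 132 to 146 CPM with sgMed12 and 109 to 120 CPM in sgControl, with Cd14 and Ctsg at 0 reads in both, and its part was not tested.

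In Phase 1 sgControl cells Ccl9 had 21.2, 11 and 8.80 CPM, above their LPs at 4.72, 1.86 and 3.85 CPM (1.68, SE 0.52, limma adjusted P = 0.0602). This difference passed under median-of-ratios scaling, with edgeR and with a pseudocount of 5 (adjusted P = 0.0475, 0.0399 and 0.0265). It also passed without Phase 1 sgControl replicate 3 (1.92, limma adjusted P = 0.0434) or without Phase 1 sgCbfb replicate 1 (1.68, limma adjusted P = 0.0492). The sgCbfb cells stayed at 1.95 to 6.28 CPM in both stages. The genes most like Ccl9 were Tubb3 (r = 0.785), Prpf31 (0.776) and Zfp36l2 (0.739).

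Xcl1, the ligand of Xcr1 on cross-presenting dendritic cells, was seen almost only with sgCTCF. There it had 7.51, 7.52 and 3.70 CPM (28, 27 and 16 reads). Elsewhere in Experiment 2 it had 0 to 1.46 CPM, with 6 reads in sgControl replicate 3, 3 reads in all with sgMed12 and none with sgCbfb, and in Experiment 1 it gave 1 read over 12 libraries. It passed the filter on low values through the sgCTCF group, and its mean of 6.24 CPM was under the minimum for a call (against sgControl 2.37, SE 0.40, limma adjusted P = 0.00026). Set against the limit of 3 reads per library in sgCbfb, the sgCTCF mean was at least 7.63-fold higher. Xcl1 shares 98 exon bases with the opposite-strand gene Gm20743.

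Ccl3 and Ccl4, neighbouring genes on chromosome 11 that encode inflammatory chemokines, stayed low. Neither had a group mean over 10 CPM, so that no call was possible. Ccl3 had 0 to 7.07 CPM in Experiment 1 and 0.298 to 5.93 CPM in Experiment 2. Its highest library was in Phase 1 sgCbfb, where all 3 lay above all LP libraries of that genotype (1.82, SE 0.58, limma adjusted P = 0.124). Ccl4 had 3.24, 3.14 and 2.36 CPM in Phase 1 sgCbfb and 0 reads in Phase 1 sgControl (1.96, SE 0.66, limma adjusted P = 0.0877), and in sgControl LPs 1 library of 3 held all 9 reads. Ccl4 passed the filter on low values in Experiment 1 only through the Phase 1 sgCbfb group, so that this test is no support for a rise there. In Experiment 2 it was read mainly in 2 of the 3 sgCbfb libraries (2.41 and 2.77 CPM) and was not tested.

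**Figure D5:**
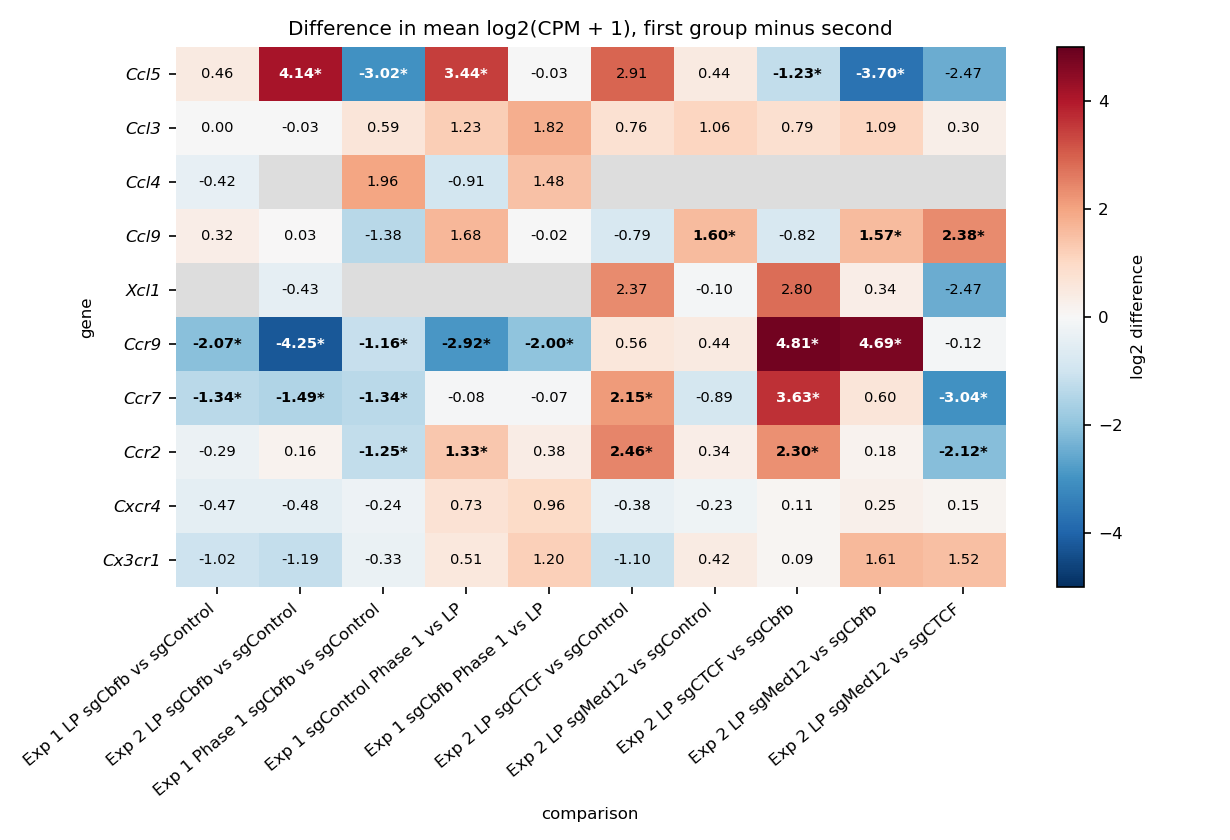
Difference in mean log2(CPM + 1), first group minus second, for each gene (rows) in 10 comparisons (columns), with the value in each cell, bold with an asterisk where called and grey where the gene was not tested. Comparisons within an experiment share libraries, so columns are not independent; Ccr9 has the lowest value, -4.25, and the highest, 4.81.

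With sgCbfb in Experiment 1 LPs, 2 of the 9 genes tested were called, both receptors and both lower, where 1.69% of all genes tested were called and 0.597% were called lower. In Phase 1, sgCbfb gave 4 of 9, all lower (Ccr9, Ccl5, Ccr7 and Ccr2), against 3.52% of all genes in either direction and 1.56% lower. The median difference over the 9 was -1.16 and that over all genes 0.06. The genes examined and the further lists were chosen with earlier results of these data known. Their counts and medians beside the background, here and below, therefore do not test whether such genes changed more often than others. Phase 1 against LP gave 3 of 9 in sgControl cells (Ccl5 and Ccr2 higher, Ccr9 lower; background 3.39%) and 1 of 9 in sgCbfb cells (Ccr9 lower; background 1.19%, with 0.453% lower). The interaction called 1 of 9 (background 1.19%).

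In Experiment 2, sgCbfb gave 3 of 9 (Ccl5 higher, Ccr9 and Ccr7 lower; background 4.33%), sgCTCF 2 of 9 (Ccr7 and Ccr2 higher; background 2.43%, with 1.81% higher) and sgMed12 1 of 9 (Ccl9 higher; background 1.03%, with 0.668% higher). The background of the sgMed12 comparison depended on single libraries, with 358 of all genes called without sgMed12 replicate 2 and 54 without sgMed12 replicate 3, against 136 with all libraries. Between perturbed groups, sgCTCF against sgCbfb gave 4 of 9 (background 6.87%), sgMed12 against sgCbfb 3 of 9 (background 4.48%) and sgMed12 against sgCTCF 3 of 9 (background 4.01%). The comparisons with sgControl share the same 3 control libraries. Ccr9 and Ccr7 were the 2 genes called lower with sgCbfb in all 3 comparisons with sgControl, and Ccl3, Ccl4, Xcl1, Cxcr4 and Cx3cr1 were called in none. Of the latter, all but Cxcr4 had no group mean over 10 CPM, so that no call on them was possible.

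The rest of the pathway was taken from 3 further lists. Of 31 other chemokine genes only 3 were tested in each experiment and none was called in any comparison by limma or by edgeR, with at most 2 of the 3 at an unadjusted limma P under 0.05. Of 18 other chemokine receptor genes, 7 were tested in Experiment 1 and 5 in Experiment 2. The 1 gene called by limma was Cxcr5, the receptor for the follicular chemokine Cxcl13, which was 7.44 CPM in sgControl and 20.8 CPM with sgMed12 with overlapping libraries (1.21, SE 0.37, limma adjusted P = 0.0464). With sgCTCF Cxcr5 was 15.1 CPM and with sgCbfb 0.268 CPM, the latter below all sgControl libraries but with both means under 10 CPM (-2.77, SE 0.37, limma adjusted P = 3.83e-06). Cxcr5 was called higher with sgCTCF and with sgMed12 than with sgCbfb (3.71 and 3.98, limma adjusted P = 2.44e-08 and 1.41e-08). In Experiment 1 LPs it was 12.8 CPM in sgControl and 2.09 CPM with sgCbfb without overlap, which limma did not call (-2.17, SE 0.60, limma adjusted P = 0.0519) and edgeR called lower.

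Of 35 genes that carry chemokine receptor signals inside the cell, 34 were tested, and 1 to 5 were called in a comparison. Against sgControl, sgCbfb gave 1 of 34 in each stage of Experiment 1 and 2 of 34 in Experiment 2, where 1.69%, 3.52% and 4.33% of all genes were called, so that these counts stand near the background. With sgCbfb, Gng2, a G protein gamma subunit, rose from 52.4 to 108 CPM in Experiment 1 LPs (1.03, SE 0.20, limma adjusted P = 0.00321) and was the 1 gene of the list called there. Rgs14, which shortens Gi signals, was called higher with sgCbfb in Phase 1, at 32.6 against 3.52 CPM (3.34, SE 0.55, limma adjusted P = 0.00034), and in Experiment 2, at 27.3 against 11.8 CPM (1.18, SE 0.21, limma adjusted P = 0.000249). Plcb2, a phospholipase C, was the other gene called with sgCbfb in Experiment 2, at 19.1 against 6.67 CPM.

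After Notch stimulation the list gave 3 calls of 34 in sgControl cells (background 3.39%), with Arrb2 (beta-arrestin 2, which ends receptor signals) at 163 against 69.1 CPM, Rgs2 at 154 against 75.9 CPM and Rgs14 lower, at 3.52 against 14.9 CPM. In sgCbfb cells it gave 2 (background 1.19%), Rgs2 at 276 against 106 CPM and Rasgrp2, an activator of the integrin switch Rap1, at 150 against 67.8 CPM. The interaction called Apbb1ip, a Rap1 effector (0.86, SE 0.17, limma adjusted P = 0.00746). With sgCTCF in Experiment 2 the calls were Pik3r5, the regulatory subunit of the kinase downstream of these receptors, at 12.8 against 3.92 CPM, Rgs1 at 15.2 against 3.36 CPM and Rgs14 at 23.7 against 11.8 CPM, all 3 higher (background 2.43%). With sgMed12 the 1 call (background 1.03%) was Rgs1, which damps chemokine receptor signals, at 13.1 CPM (1.65, SE 0.33, limma adjusted P = 0.00497).

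Between perturbed groups, sgCTCF against sgCbfb gave 5 of 34 signalling genes (background 6.87%), with Pik3r5, Rgs1, Rhoh and Rasgrp2 higher and Plcb2 lower. Against sgCbfb, sgMed12 gave 3 of 34 (background 4.48%), with Rgs1 higher and Prex1 and Plcb2 lower. Against sgCTCF, sgMed12 gave 1 of 34, Pik3r5 lower, where 4.01% of all genes were called. The median difference of the list lay between -0.27 and 0.20 in all 11 comparisons.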

How the data were processed

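The RNA of sorted cells was made into libraries with a 3′ tag kit and read as single 75-base reads. The submitters' processing notes name fastp, STAR and mm10, and the authors scaled every library to the same total. The deposited values carry the name TPM but are CPM, since every value in a library was a whole multiple of 1 step whatever the length of the gene, and at least 99.99% of values gave whole reads (tolerance 0.05 reads). Tool versions, annotation, counter and strand setting are not given in the sources used here. A column of the authors' means was not used.

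The fit was limma 3.58.1 (R 4.3.3, variance trend) on log2(CPM + 1) with the 4 groups of an experiment together, genes at 1 CPM or more in 3 libraries, and Benjamini-Hochberg adjustment. A log2 difference on this scale understates the change of low genes. The alternatives were pseudocounts of 0.1 and 5, no filter, median-of-ratios scaling, the compared groups alone, a replicate block, edgeR 4.0.16 quasi-likelihood on recovered reads, and each library left out. The members and lists were chosen with earlier results of these data known, and the neighbours of Ccr9 after their values were seen. An item of the receptor list is not reported here. All members were named in every comparison, with up to 4 called genes per further list (largest difference) and the 3 genes most like each member with a mean over 10 CPM in both experiments. The fits were tested on simulated data.

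The correlation of the deviations of samples sharing a replicate number was over 0.1 in each of 3 pairs only for sgCTCF and sgCbfb in Experiment 2, at 0.100, 0.124 and 0.133. For sgCbfb and sgControl in Experiment 2 it was 0.0465, 0.216 and 0.179. The labels do not say whether replicates were separate cultures, and the study calls them biological; if not, the P values measure technical spread. Intervals on reads cover counting error only.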

Additional observations from a re-analysis of the deposited data

Results flagged for a closer look

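The effect of sgCbfb on Ccr9 differed between the stages of Experiment 1. The log2 difference was -2.07 in LPs, where the means were 235 and 989 CPM, and -1.16 in Phase 1, where they were 58.0 and 131 CPM. The test of the interaction of stage and sgCbfb gave 0.91 (SE 0.20, limma adjusted P = 0.0168), with Ccr9 lower with sgCbfb in 3 of 3 libraries at each stage. As given above, this call was lost when certain single libraries were left out (limma adjusted P between 0.0509 and 0.0683). Cbfb RNA itself overlapped between the guides in Phase 1 and not in LPs, and its part was not tested.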

How the results depend on the processing

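Of 677 values recomputed under another setting, 667 kept their side of the call, 6 calls were lost, 4 were gained and 0 reversed. Most of these values belong to differences that were not called, and those of Ccl3, Ccl4, Xcl1 and Cx3cr1 could not be called. The losses therefore fall on the few calls. With 1 library left out, 1161 of 1188 did so, 21 calls were lost, 6 were gained and 0 reversed. Differences that were not called and whose interval held 0 changed sign 11 and 41 times, respectively. With a pseudocount of 5, the interaction called 2 of the genes instead of 1, and without the filter on low values sgMed12 against sgControl called 0 instead of 1, where 21692 genes entered the adjustment in place of 13177.

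With 1 library left out, the number of the genes called ran from 1 to 2 for sgCbfb in Experiment 1 LPs, from 2 to 4 for sgCbfb in Phase 1, from 3 to 5 for Phase 1 against LP in sgControl cells, from 0 to 1 for the interaction and from 0 to 2 for sgMed12 against sgControl. Beyond the losses given with each gene, Ccl5 between sgCTCF and sgCbfb was lost with a pseudocount of 0.1 (limma adjusted P = 0.22) and without the filter (0.0596). The causes were not tested.

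With the replicate number as a block, no call on the genes changed, including sgCTCF against sgCbfb, the 1 comparison whose numbers deviated together, where 4 of the genes and 905 genes in all were called with and without it. In the other comparisons the block moved the count of all genes called most, in number and in proportion, for the interaction (181 against 157). The labels do not say whether the samples there share more than a number.

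The count of all genes called moved by over 1.5 times for sgMed12 against sgControl, from 136 to 54 without the filter and 57 on the compared groups alone, and with 1 library left out to 54 (sgMed12 replicate 3), 61 (sgMed12 replicate 1), 66 (sgControl replicate 2) or 358 (sgMed12 replicate 2). It also did so for Phase 1 against LP in sgCbfb cells, from 158 to 245 on the compared groups alone. With edgeR on the recovered reads the counts were 161 and 193 in these comparisons and 905 for sgCTCF against sgCbfb, and each member called by limma was called.
Depth limits Ccl3, Ccl4, Xcl1 and Cx3cr1 most, with at most 28 reads in a library.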
